A study of Homo sapiens with 8 samples.

Results

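H3122-LR3 and H3122-LR2 are derivatives of the human lung adenocarcinoma cell line H3122, which carries the EML4-ALK fusion kinase, and both resist the ALK inhibitor ceritinib. The comparison used 2 LR3 arrays, 1 from untreated cells and 1 from cells given 1000 nM ceritinib for 6 h, and the 2 LR2 arrays of the same agents, so 4 of the 8 arrays of the series. LR3 minus LR2 was taken within each agent, which gave 2 pairs that shared no array. The other 4 arrays were LR2 cells with 1000 nM crizotinib, a second ALK inhibitor, and parental H3122 cells untreated, with ceritinib and with crizotinib. LR3 cells with crizotinib were not analysed here. All cells were grown in the same serum-containing medium, and each condition had 1 array. Whether either resistant line is 1 clone is not given in the sources used here, so a difference between the lines may be a difference between 2 cultures.

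The EML4-ALK fusion joins the kinase domain of the receptor ALK to EML4, and the fused kinase drives growth through the RAS-ERK, PI3K and STAT pathways. Ceritinib and crizotinib occupy the ATP site of the kinase. Cells under long exposure to such a drug can outgrow through changes in ALK itself, through another receptor that feeds the same pathways, or through a change of cell state, and lines selected from a common parent need not take the same route. The series title names FGFR3, a receptor for fibroblast growth factors, as a route in these cells.

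Values are log2 signals of probe sets as normalized with RMA, and differences are LR3 minus LR2 on that log2 scale. Each of 18132 genes was represented by its brightest probe set, and 10527 genes that exceeded a floor of 5.36 in at least 2 arrays were tested. The floor is the median of all probe set signals and not a detection call, so the size of a difference is uncertain where 1 line lies under it. A gene could also enter through the line in which it was high: 32 genes called higher exceeded the floor in both LR3 arrays and no paired LR2 array, and 84 called lower did so in the reverse way. Counts per gene list are therefore counts over tested members. Array medians were 5.31 to 5.35 in LR3, 5.34 to 5.46 in LR2 and 5.34 to 5.36 in parental cells, with the highest in LR2 with ceritinib. Epithelial markers of lung adenocarcinoma exceeded the floor in all 4 arrays for 10 of 10 genes, with mean signals of 10.57 and 10.55 in LR3 and 10.52 and 10.62 in LR2. Of the other cell types' markers, 8 of 9 for fibroblasts, 6 of 8 for leukocytes and 5 of 8 for endothelial cells lay under the floor in all 4 arrays. The fibroblast marker LUM was the exception in its list, at 6.12 and 6.12 in LR3, against 4.60 and 4.70 in LR2.

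The comparison asked which genes separate the resistant lines in the same direction with and without drug. A gene was called when its adjusted p in limma was under 0.05 and both pairs had 1 sign. This held for 2064 of 10527 genes (19.6%), of which 767 were higher in LR3 (7.29%) and 1297 lower (12.3%). Every list count below is to be read beside these shares of all genes tested. The median difference of called genes was 0.46 for those higher and -0.50 for those lower, with a median standard error of 0.09. Over all genes tested the median was 0.01 in the untreated pair and -0.07 in the ceritinib pair, and centring every array on its own median turned both to 0.04. That centring called 1290 higher and 1103 lower (53.9% higher), against 37.2% higher without it, and quantile normalization called 1100 higher and 1217 lower (47.5%). The split between higher and lower calls therefore depended on the scaling.

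A difference of at least 2-fold in both pairs was found for 129 genes (1.23%), of which 42 lay higher in LR3 and 87 lay lower, and limma called 124 of the 129. No gene tested differed by 0.5 or more in opposite directions in the pairs, whereas 716 did so in 1 direction. Without the LR3 untreated array the calls were 243 higher and 664 lower, and without the LR3 ceritinib array they were 290 higher and 420 lower. Leaving out the LR2 untreated array gave 318 and 743, and leaving out the LR2 ceritinib array gave 583 and 710. The p-values measure the spread between these arrays, mainly how the line difference varied between agents, and carry no information on separately grown cultures.

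**Figure D1:**
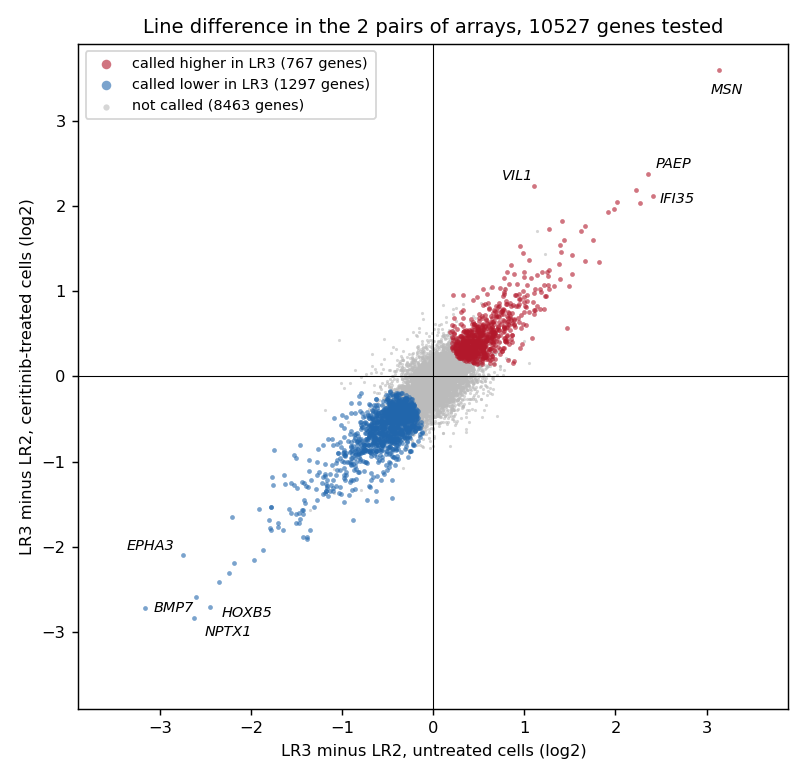
Each point is 1 of 10527 genes tested, with LR3 minus LR2 in untreated cells on the horizontal axis and in ceritinib-treated cells on the vertical axis, both log2. The 767 genes called higher and the 1297 called lower run along the diagonal, with MSN at one end and BMP7 and NPTX1 at the other.

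The gene with the largest rise was MSN, which encodes moesin, a protein that ties the actin cortex to the plasma membrane. Its log2 signals were 6.80 and 6.87 in LR3 untreated and with ceritinib, against 3.66 and 3.28 in the LR2 arrays of the same agents. The LR2 crizotinib array read 3.44 and the parental arrays 4.03 to 4.09. Only the LR3 arrays exceeded the floor. The fitted difference was 3.38 ± 0.11 (SE), or 10.4-fold, with an adjusted p of 1.41e-05, and all 3 probe sets had the same sign. Here and below, the SE comes from the limma fit of all arrays of the series, and not from the 2 pairs alone. For MSN, LR3 minus LR2 was 3.14 in the untreated pair and 3.59 in the ceritinib pair. Villin, VIL1, which bundles actin in brush borders, was at 5.47 and 6.18 in LR3, against 4.37 and 3.95 in LR2 and 3.63 to 4.08 in parental cells. It rose by 1.71 ± 0.24 (adjusted p = 0.00274), and by more with ceritinib (2.23) than without (1.1), a difference that was not tested. The mean over its 3 probe sets, all of 1 sign, was 0.68. The call of VIL1 was lost in the 4 paired arrays alone (adjusted p = 0.0731). ASAP2, a GTPase activator for Arf proteins, rose by 1.67 ± 0.09.

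IFI35, an interferon-induced protein, had signals of 6.94 and 7.13 in LR3, against 4.53 and 5.01 in LR2 and 4.69 to 5.15 in parental cells, and rose by 2.38 ± 0.16 (5.19-fold, adjusted p = 0.000103). PAEP, the secreted lipocalin glycodelin, had 6.70 and 6.87 in LR3, against 4.34 and 4.50 in LR2. Here the parental arrays, at 7.0 to 7.04, lay with LR3, and the difference was 2.34 ± 0.09 (adjusted p = 1.41e-05). PTGS2, the inducible cyclooxygenase of prostaglandin synthesis, had 8.31 and 7.87 in LR3, against 6.29 and 5.82 in LR2, while the parental arrays ran from 5.61 with ceritinib to 7.59 untreated. It rose by 2.12 ± 0.32 (adjusted p = 0.00385), and its call was lost without the LR3 ceritinib array (adjusted p = 0.0535). MAN1A1, a Golgi mannosidase that trims N-glycans, had 7.76 in both LR3 arrays, against 5.54 and 5.57 in LR2, and lay between them in parental cells at 6.59 to 6.70. It rose by 2.27 ± 0.10. Smaller rises were those of the annexin ANXA9 (2.14 ± 0.09), the chemokine CCL15 (1.95 ± 0.08), the retinoic acid carrier CRABP2 (1.93 ± 0.08), the troponin TNNT1 (1.69 ± 0.08), the organic anion transporter SLCO4A1 (1.65 ± 0.16), the metalloreductase STEAP4 (1.65 ± 0.09) and the galectin LGALS1 (1.59 ± 0.12).

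The gene with the largest fall was BMP7, a secreted ligand of the bone morphogenetic protein family. Its log2 signals were 4.20 and 4.70 in LR3, under the floor, against 7.37 and 7.42 in LR2, with 7.26 in the LR2 crizotinib array and 6.89 to 7.02 in parental cells. It fell by 2.91 ± 0.12, or 7.53-fold (adjusted p = 1.41e-05), and its second probe set fell by 1.1 ± 0.11. NPTX1, neuronal pentraxin, was at 4.69 and 4.91 in LR3, against 7.32 and 7.74 in LR2, and fell by 2.76 ± 0.24. The mean over its 2 probe sets was -1.49. GHR, the growth hormone receptor, was at 5.37 and 5.50 in LR3, against 7.56 and 7.69 in LR2, with parental cells between at 6.59 to 6.68, and fell by 2.17 ± 0.08. In each of these genes no LR3 array overlapped an LR2 array, which follows from their choice by largest difference.

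S100A9, which with its partner S100A8 forms calprotectin of myeloid cells and irritated epithelia, had 4.34 and 4.75 in LR3, against 6.55 and 6.40 in LR2 and 8.87 to 9.27 in parental cells. The parental arrays therefore lay beyond LR2, and the difference between the resistant lines was -1.89 ± 0.17 (adjusted p = 0.000412). BPIFA1 had the same order, at 6.30 and 6.27 in LR3, against 8.09 and 8.05 in LR2 and 9.69 to 9.86 in parental cells. CALML5, a calmodulin-like protein of differentiating epidermis, was at 8.29 and 8.41 in LR3, against 10.10 and 10.09 in LR2, and its parental arrays, at 8.04 to 8.51, lay with LR3. The remaining named falls were those of AUTS2, a nuclear protein of neural development (-1.89 ± 0.13), B3GNT5, a glycosyltransferase that starts lacto-series glycolipids (-1.77 ± 0.10), and the zinc finger gene ZMAT4 (-1.76 ± 0.10). The mean over the 4 probe sets of AUTS2 was -0.65.

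**Figure D2:**
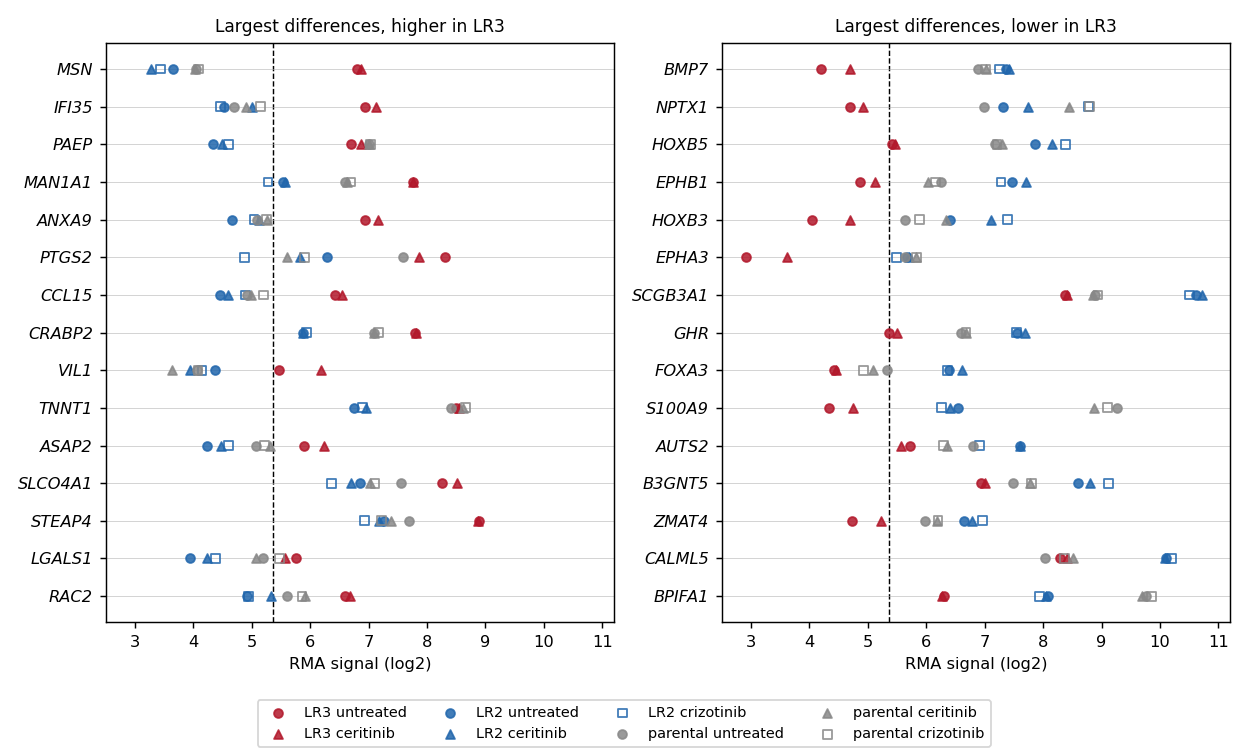
Log2 RMA signal of the 15 largest rises (left) and the 15 largest falls (right) by fitted difference, 1 point an array, with LR3 in red, LR2 in blue and parental cells in grey, and the floor of 5.36 as a dashed line. The genes were chosen for the largest differences between the lines, so the gap between LR3 and LR2 arrays follows from that choice. Parental points lie with LR3 (PAEP, TNNT1, CALML5), with LR2 (MSN, EPHA3), between them (MAN1A1, GHR) or beyond LR2 (S100A9, BPIFA1).

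The TATA box, TATAAA, is a core promoter element a short way upstream of the start, and it helps to place RNA polymerase II at a fixed start. It is common in genes that switch strongly between cell types. Of the 30 genes in the plot of the largest rises and falls, 19 had exactly 1 start in the RefSeq promoter table used (GRCh38.p14), and 6 of these held TATAAA in the 250 bases before the start. Those 6 are printed because they are among the genes that moved most and share these letters, shown in capitals, 29 to 32 bases before the start. All run 5′ to 3′ on the gene's own strand.
PTGS2 (higher in LR3, chr1:186680424-186680673, minus strand): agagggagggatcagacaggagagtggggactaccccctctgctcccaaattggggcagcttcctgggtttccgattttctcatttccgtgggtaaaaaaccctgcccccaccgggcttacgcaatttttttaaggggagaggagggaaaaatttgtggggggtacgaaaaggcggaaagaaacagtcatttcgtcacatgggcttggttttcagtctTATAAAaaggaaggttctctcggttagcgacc
CCL15 (higher in LR3, chr17:36001554-36001803, minus strand): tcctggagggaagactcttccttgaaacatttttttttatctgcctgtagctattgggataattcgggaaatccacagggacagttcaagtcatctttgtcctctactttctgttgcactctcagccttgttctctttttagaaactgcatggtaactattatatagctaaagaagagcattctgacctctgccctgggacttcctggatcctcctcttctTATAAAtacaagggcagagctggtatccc
TNNT1 (higher in LR3, chr19:55149207-55149456, minus strand): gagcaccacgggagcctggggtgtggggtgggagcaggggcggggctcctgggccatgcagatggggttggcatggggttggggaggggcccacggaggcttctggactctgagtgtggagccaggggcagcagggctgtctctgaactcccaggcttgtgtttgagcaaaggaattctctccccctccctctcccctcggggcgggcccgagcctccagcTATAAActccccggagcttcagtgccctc
FOXA3 (lower in LR3, chr19:45864076-45864325, plus strand): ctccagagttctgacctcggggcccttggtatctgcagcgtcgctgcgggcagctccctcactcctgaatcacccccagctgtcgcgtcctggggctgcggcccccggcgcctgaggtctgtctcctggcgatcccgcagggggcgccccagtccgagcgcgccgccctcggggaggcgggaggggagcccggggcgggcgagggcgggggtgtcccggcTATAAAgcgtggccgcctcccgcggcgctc
S100A9 (lower in LR3, chr1:153357604-153357853, plus strand): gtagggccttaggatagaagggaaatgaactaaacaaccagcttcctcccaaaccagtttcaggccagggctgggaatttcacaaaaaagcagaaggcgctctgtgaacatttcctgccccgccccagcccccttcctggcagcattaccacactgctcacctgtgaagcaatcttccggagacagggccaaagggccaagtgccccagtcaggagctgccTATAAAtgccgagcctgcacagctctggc
BPIFA1 (lower in LR3, chr20:33235746-33235995, plus strand): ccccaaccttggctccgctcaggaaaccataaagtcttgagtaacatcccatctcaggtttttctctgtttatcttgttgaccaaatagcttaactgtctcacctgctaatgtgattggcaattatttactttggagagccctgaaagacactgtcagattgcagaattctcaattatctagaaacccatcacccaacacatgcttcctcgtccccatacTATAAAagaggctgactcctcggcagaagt

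TATAAA was searched on both strands in genes with 1 start in the table. It occurred in 7 of 24 genes at least 2-fold higher in LR3 (29.2%) and in 7 of 42 at least 2-fold lower (16.7%), beside 346 of 6222 genes tested (5.56%). TGACTCA, the letters bound by AP-1, was likewise searched on both strands and occurred in 3 (12.5%), 4 (9.52%) and 163 (2.62%) of the same sets. The genes called at any size were close to the whole, with TATAAA in 6.43% of those higher and 5.95% of those lower. These shares describe letters in a window and say nothing of which factor was bound.

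Among receptors of the drug-resistance setting, FGFR3 was higher in LR3. Its brighter probe set read 8.48 and 8.70 in LR3, against 7.65 and 7.96 in LR2, 7.81 in LR2 with crizotinib and 7.25 to 7.68 in parental cells. The 2 LR3 arrays lay above every other array, and the rise was 0.77 ± 0.08 (1.71-fold, adjusted p = 0.001). Its fainter probe set separated the lines further, with 7.06 and 7.46 in LR3, against 4.37 and 4.27 in LR2 and 4.04 to 4.27 in parental cells. In a fit of every probe set on its own that one rose by 2.96 ± 0.14 (adjusted p = 2.01e-05), and the brighter by 0.77 ± 0.10, so the probe sets had 1 sign and different sizes. FGF9, a ligand that binds FGFR3, moved the other way, with 3.72 and 4.34 in LR3, against 5.16 and 5.91 in LR2 and 5.89 to 7.0 in parental cells. It fell by 1.49 ± 0.10 (adjusted p = 9.17e-05), with both LR3 arrays under the floor. The other probe set of FGF9 did not separate the lines, with 4.63 and 4.76 in LR3, against 4.72 and 5.03 in LR2. In the fit of every probe set on its own it differed by -0.14 ± 0.10 (adjusted p = 0.5). Of 19 FGF receptors and ligands measured, 8 passed the floor, and FGFR3 and FGF9 were the members called. FGFR1 (0.11 ± 0.08, adjusted p = 0.397) and FGFR4 (0.18 ± 0.09, adjusted p = 0.204) were not called, and FGFR2 was too dim to test.

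ALK itself read 8.10 and 8.09 in LR3, against 8.47 and 8.55 in LR2, and 7.19 to 7.39 in parental cells. Both resistant lines were above every parental array and LR3 lay between. The difference of -0.37 ± 0.09 was called (adjusted p = 0.0295), but without any 1 of the 4 paired arrays it was not (adjusted p 0.121 to 0.204). The fusion partner EML4 differed by 0.20 ± 0.09 (adjusted p = 0.148). In the list of other receptor tyrosine kinases, 12 of 25 measured passed the floor, 2 were higher and ALK was the 1 lower. ROR1, a receptor for the ligand WNT5A, rose by 1.13 ± 0.12, with 5.65 and 5.76 in LR3, against 4.65 and 4.59 in LR2. MERTK, a receptor of the TAM family, rose by 0.59 ± 0.08, and its ligand PROS1 rose by 1.16 ± 0.09. The call of MERTK was lost in the 4 paired arrays alone (adjusted p = 0.0538). ERBB2 (0.09 ± 0.08), ERBB3 (0.13 ± 0.10), MET (-0.08 ± 0.13) and IGF1R (0.06 ± 0.15) were not called, with adjusted p of 0.489, 0.419, 0.72 and 0.82, and EGFR, AXL and KIT were too dim to test. LRIG1, a membrane protein that promotes turnover of ERBB receptors, fell by 1.31 ± 0.15 (adjusted p = 0.00125). ETV4, a transcription factor downstream of ERK, was the 1 call among 21 genes of ERK pathway output (0.58 ± 0.16, adjusted p = 0.038), and it was not called without the LR3 ceritinib, LR2 untreated, LR2 ceritinib or LR2 crizotinib array (adjusted p 0.0833 to 0.346). The fitted median of that list was 0.33, beside -0.02 over all genes tested, with 0.13 in the untreated pair and 0.23 in the ceritinib pair. Without the parental ceritinib array the list had 8 higher and 3 lower.

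Eph receptors bind membrane-bound ephrins on neighbouring cells and steer adhesion and cell sorting. Of 17 measured, 13 passed the floor, and 5 were called lower and 0 higher, with a median of -0.41 beside -0.02 over all genes tested. The same counts came out after centring and after quantile normalization. Without the LR2 untreated or the LR2 crizotinib array 4 were lower, and without the parental ceritinib array 8 were. EPHB1 had 4.86 and 5.12 in LR3, against 7.47 and 7.71 in LR2 and 6.03 to 6.26 in parental cells. Parental cells thus lay between the resistant lines, and EPHB1 fell by 2.55 ± 0.14 (5.84-fold, adjusted p = 4.29e-05). Its 6 probe sets had 1 sign but ran from -2.55 to -0.06, with a mean of -1.14. EPHA3 had 2.92 and 3.61 in LR3, against 5.67 and 5.70 in LR2. Its parental arrays, at 5.64 to 5.84, lay with LR2, and it fell by 2.37 ± 0.15 (adjusted p = 8.95e-05). The mean over its 3 probe sets, all of 1 sign, was -0.91. EPHA7 fell by 0.90 ± 0.13. The ephrin EFNA4 fell by 0.80 ± 0.21 (adjusted p = 0.0303), a call lost without the LR3 ceritinib array or any 1 of the LR2 arrays (adjusted p 0.0856 to 0.261). EPHB4, named after its values were seen, fell by 0.76 ± 0.10.

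The lung lineage list holds genes of alveolar and airway epithelium. Of 26 measured, 18 passed the floor, and 9 were lower in LR3 and 2 higher, with a median of -0.46. After centring there were 8 lower and 2 higher. In bulk RNA, fewer cells of a type and less RNA per cell cannot be told apart. SCGB3A1, an airway secretoglobin, had 8.37 and 8.41 in LR3, against 10.61 and 10.72 in LR2 and 8.85 to 8.94 in parental cells. LR3 was therefore nearer to parental cells than LR2 was, and the difference was -2.24 ± 0.09 (4.72-fold, adjusted p = 1.41e-05). FOXA3, a transcription factor of endoderm and of mucus-producing airway cells, fell by 2.09 ± 0.11, with 4.42 and 4.45 in LR3, against 6.39 and 6.61 in LR2 and 4.92 to 5.33 in parental cells. BPIFA1, a secreted defence protein of the upper airway, fell by 1.74 ± 0.09. Surfactant protein A, of alveolar type 2 cells, is encoded by SFTPA1, which fell by 1.67 ± 0.09, with 4.87 and 4.94 in LR3, against 6.65 and 6.47 in LR2 and 6.63 to 6.83 in parental cells. SFTPA1 and SFTPA2 are near-identical copies, and their probe sets may have read either.

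Further members of the list are named after their values were seen. SFTPA2 fell by 1.34 ± 0.08, LAMP3, a lysosomal membrane protein of type 2 cells, by 1.39 ± 0.11, and AQP5, a water channel of type 1 cells, by 1.25 ± 0.17. BPIFB1 fell by 0.64 ± 0.08. NAPSA, an aspartic protease that processes surfactant, fell by 0.32 ± 0.08 (adjusted p = 0.0277), and without any 1 of the 4 paired arrays it was not called (adjusted p 0.0735 to 0.171). HOPX, a homeodomain protein of type 1 cells, went the other way with 9.30 in both LR3 arrays, against 8.27 and 8.23 in LR2 (1.09 ± 0.11). The airway secretory protein WFDC2 rose by 0.96 ± 0.10. Genes of type 1 cells thus lay on both sides, with AQP5 lower and HOPX higher.

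HOX genes encode positional transcription factors that are transcribed from clusters. Of 21 measured, 13 passed the floor, and 8 were lower in LR3 and 0 higher, with a median of -0.39. After centring 12 passed and 7 were lower. HOXB5 had 5.41 and 5.46 in LR3, against 7.86 and 8.16 in LR2, 8.38 in LR2 with crizotinib and 7.17 to 7.30 in parental cells. It fell by 2.64 ± 0.12 (6.24-fold, adjusted p = 1.78e-05). HOXB3 had 4.05 and 4.69 in LR3, against 6.41 and 7.10 in LR2 and 5.64 to 6.34 in parental cells, and fell by 2.51 ± 0.16. Its other 3 probe sets had the same sign and were smaller, so the mean over its probe sets was -0.96. HOXB6 fell by 1.63 ± 0.12, with parental cells between the resistant lines in each of these genes. HOXD1, of another cluster, fell by 1.19 ± 0.13. The other 4 calls, named after their values were seen, HOXB7, HOXC8, HOXC9 and HOXC10, were smaller (-0.47 to -0.37), and each was lost without the LR3 ceritinib array (adjusted p 0.0777 to 0.281) and without the LR3 untreated array (adjusted p 0.0542 to 0.098). Those of HOXB7, HOXC9 and HOXC10 were lost without the LR2 ceritinib array too (adjusted p 0.0597 to 0.107), and that of HOXC10 also without the LR2 untreated (0.182) or LR2 crizotinib array (0.0546).

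Squamous and basal genes of stratified epithelium were lower in LR3 in 6 of the 9 that passed the floor, of 21 measured, and higher in 0, with a median of -0.87. These counts did not change with centring or quantile normalization, but 5 were lower without any 1 of the LR2 arrays. The count lower also dropped without either LR3 array, and furthest without LR3 ceritinib. Those fits leave 1 array of LR3. Beside S100A9 and CALML5, SPRR1B, a cornified envelope protein, fell by 1.39 ± 0.18, with 4.04 and 4.17 in LR3, against 5.68 and 5.33 in LR2. LY6D, a surface protein of keratinocytes, fell by 0.89 ± 0.14, with 8.83 in both LR3 arrays, against 9.69 and 9.79 in LR2, and its call was lost without the LR3 ceritinib array (adjusted p = 0.0558). Mucins and glandular secretory genes moved both ways, with 4 higher and 2 lower of 15, against 1 and 1 without the LR3 ceritinib array and 2 higher without LR3 untreated or LR2 untreated. Beside PAEP, the intelectin ITLN1 fell by 1.48 ± 0.11, with 7.72 and 7.75 in LR3, against 9.20 and 9.35 in LR2. Its parental arrays, at 7.07 to 7.56, lay just under LR3.

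**Figure D3:**
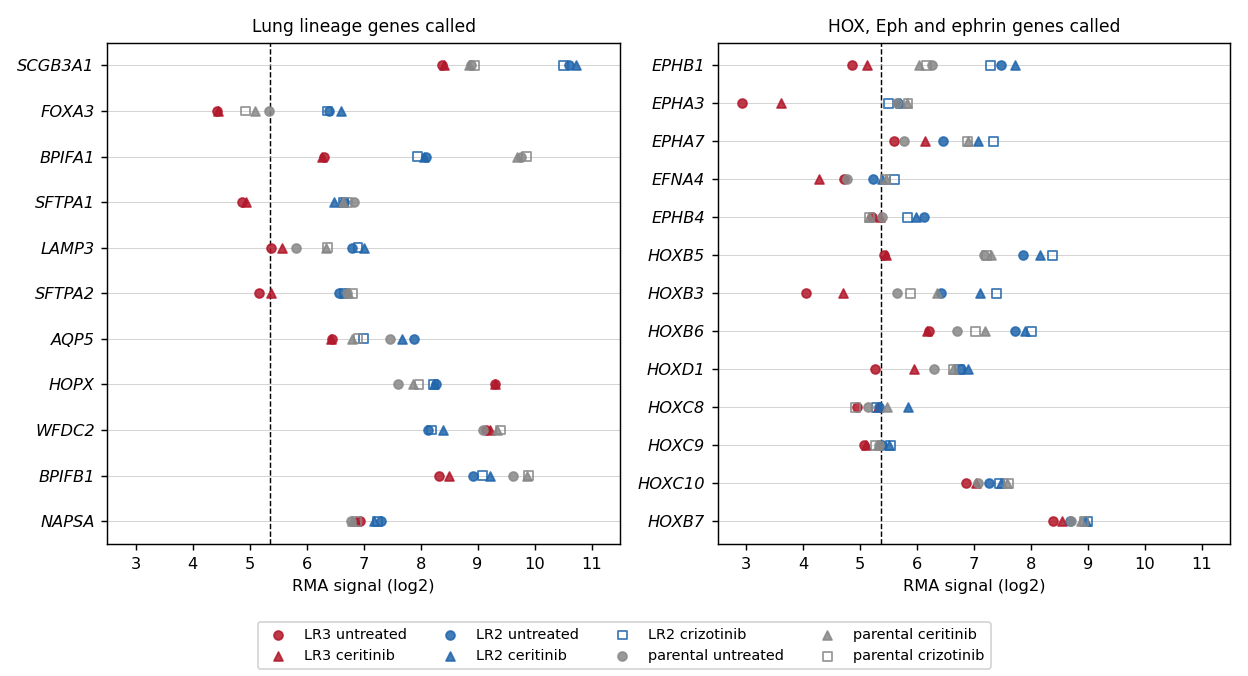
Log2 RMA signal by array of the called lung lineage genes (left) and of the called Eph, ephrin and HOX genes (right), with LR3 in red, LR2 in blue, parental cells in grey and the floor of 5.36 dashed. LR3 lies left of LR2 in all but HOPX and WFDC2, by 2.64 in HOXB5 and by 0.32 in NAPSA.

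Epithelial identity did not separate the lines in 1 direction. Of 23 epithelial and junction genes, 2 were higher and 3 lower, with 0 lower without the LR3 ceritinib array, and CDH1, the adherens junction cadherin, differed by -0.23 ± 0.09 (adjusted p = 0.0968). The claudin CLDN3, a tight junction protein, rose by 0.79 ± 0.10. Of 22 mesenchymal genes only 4 passed the floor, and VIM was under it in every array at 2.74 to 3.06. LUM, a matrix proteoglycan, rose by 1.52 ± 0.19, while the mean signal of the fibroblast markers was 3.9 and 3.88 in LR3, against 3.65 and 3.81 in LR2. The part of such cells in the rise was not tested. LUM exceeded the floor in the LR3 arrays alone. S100A4, a calcium-binding protein of motile cells, rose by 0.74 ± 0.08. Among adhesion molecules, 5 of 14 were lower and 1 higher, against 2 and 0 without the LR3 ceritinib or the LR2 untreated array. CD44, the hyaluronan receptor, had 7.26 and 7.40 in LR3, against 8.43 and 8.69 in LR2 and 7.75 to 7.97 in parental cells, and fell by 1.21 ± 0.08 (adjusted p = 0.000103) with all 10 probe sets of 1 sign. Of 30 matrix, integrin and protease genes that passed the floor, 6 were higher and 3 lower, and 3 were higher without the LR3 ceritinib or the LR2 untreated array. GPC6, a cell-surface heparan sulphate proteoglycan, had 4.15 and 4.27 in LR3, against 5.51 and 6.07 in LR2 and 7.46 to 7.63 in parental cells. It fell by 1.61 ± 0.12, and the mean over its 4 probe sets was -0.51. MMP10, a secreted protease, rose by 1.38 ± 0.31 (adjusted p = 0.0184) and was not called without the LR3 ceritinib array (adjusted p = 0.191), the LR2 untreated array (0.0671) or the LR2 crizotinib array (0.0558). ITGB5, an integrin chain that pairs with the alpha V chain, rose by 1.18 ± 0.11. Among membrane-cytoskeleton linkers, 4 of 24 were higher and 2 lower, counts that held under both scalings, with the unconventional myosin MYO1C (0.75 ± 0.09) after MSN and VIL1.

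TGF-beta and BMP genes encode ligands, serine-threonine kinase receptors and their targets. Of 21 that passed the floor, 6 were lower in LR3 and 1 higher, beside 12.3% and 7.29% of all genes tested. The median was -0.13, and after centring 5 were lower and 3 higher. Without the LR3 ceritinib array 2 were lower, and without LR3 untreated or LR2 untreated 4 were. The type 1 receptor TGFBR1 had 7.90 and 7.92 in LR3, against 8.86 and 9.04 in LR2 and 8.71 to 8.85 in parental cells. The parental arrays lay with LR2, and TGFBR1 fell by 1.01 ± 0.09 (adjusted p = 0.000412). The mean over its 3 probe sets, all of 1 sign, was -0.42. The BMP type 2 receptor BMPR2 fell by 0.72 ± 0.12 and the TGF-beta type 2 receptor TGFBR2 by 0.71 ± 0.11, and both calls were lost without the LR3 ceritinib array (adjusted p = 0.0626 and 0.057). The ligand BMP7 and these 3 receptors were the largest calls of the list, and each was lower in LR3. The list median was only -0.13, and whether they moved as a set was not tested.

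In the WNT list 4 of 16 were lower and 1 higher, beside 12.3% and 7.29% of all genes tested. After either scaling 3 were lower. Leaving out the LR3 ceritinib array left 1 lower, and leaving out LR2 untreated or LR2 ceritinib left 2. LGR4, a receptor that potentiates WNT signals, had 7.89 and 7.88 in LR3, against 6.67 and 7.09 in LR2 and 8.14 to 8.47 in parental cells, and rose by 1.01 ± 0.11, although another probe set of LGR4 went the other way. FZD6, a frizzled receptor, fell by 0.94 ± 0.10. In the NOTCH list 3 of 19 were lower and 1 higher, and 1 lower without the LR3 ceritinib, LR2 untreated or LR2 crizotinib array. The NOTCH target HES1 fell by 0.73 ± 0.20 (adjusted p = 0.0365), but was not called without any 1 of the paired arrays (adjusted p 0.0825 to 0.266) or the LR2 crizotinib array (0.0732). DTX4, a ubiquitin ligase of the pathway, fell by 0.64 ± 0.09. The shares called in the NOTCH list were near the 12.3% lower and 7.29% higher of all genes tested. Of 17 genes of YAP and TEAD, 6 were lower and 2 higher, and centring gave 6 and 4. Leaving out the LR3 ceritinib array gave 3 lower and 0 higher, and leaving out LR2 untreated 4 and 0. WWTR1, which encodes the YAP paralog TAZ, had 6.81 and 6.55 in LR3, against 8.31 and 7.86 in LR2 and 7.10 to 8.31 in parental cells, and fell by 1.42 ± 0.18. TNFRSF12A, a receptor of the TNF family, rose by 1.31 ± 0.25 (adjusted p = 0.0086), and the membrane repair protein MYOF fell by 1.05 ± 0.10. TNFRSF12A was not called without the LR3 ceritinib array (adjusted p = 0.106) or the LR2 untreated array (adjusted p = 0.0513).

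Transporters and enzymes that handle drugs differed in several members. Of 11 efflux and uptake transporters that passed the floor, 4 were higher and 1 lower under all 3 scalings, but 2 were higher without the LR3 untreated, LR3 ceritinib or LR2 untreated array. ABCG2, an ATP-driven exporter of many kinase inhibitors, had 7.46 and 7.43 in LR3, against 6.21 and 6.2 in LR2, 6.13 in LR2 with crizotinib and 5.62 to 5.99 in parental cells. Both LR3 arrays lay above all others, and ABCG2 rose by 1.21 ± 0.09 (2.31-fold, adjusted p = 0.000205). SLCO4A1, named above, had 8.26 and 8.52 in LR3, against 6.85 and 6.70 in LR2 and 7.03 to 7.55 in parental cells. The copper importer SLC31A1 fell by 0.64 ± 0.09, and ABCB1, the exporter known as P-glycoprotein, was too dim to test.

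Xenobiotic enzymes were lower in 6 of 19 and higher in 0, with a median of -0.10, and 5 were lower after either scaling. Only 2 were lower without the LR3 untreated or the LR2 untreated array, 3 without LR3 ceritinib and 4 without LR2 ceritinib. GSTA4, a glutathione transferase for lipid peroxidation products, had 7.92 and 8.12 in LR3, against 9.21 and 9.44 in LR2 and 8.41 to 8.63 in parental cells, and fell by 1.30 ± 0.08 (adjusted p = 5.59e-05). NRF2 targets were 7 higher and 4 lower of 25, and 10 higher and 4 lower after centring. None of the 7 higher calls held without the LR3 untreated, LR3 ceritinib or LR2 untreated array, and 2 did without the LR2 crizotinib array. Without the LR3 ceritinib array HMOX1 was the 1 lower call left. HMOX1, the haem oxygenase, had 6.24 and 6.18 in LR3, against 7.87 and 7.44 in LR2 and 7.79 to 8.18 in parental cells, so that LR2 lay near parental cells, and it fell by 1.45 ± 0.10. UGDH, which makes UDP-glucuronate, rose by 0.55 ± 0.13, and was not called without any 1 of the paired arrays (adjusted p 0.0508 to 0.177). AKR1C2, an aldo-keto reductase, was at 11.25 and 11.10 in LR3, against 11.52 and 11.55 in LR2 and 8.71 to 9.11 in parental cells. Both resistant lines were far above parental cells, and between them the difference of -0.38 ± 0.12 was not called (adjusted p = 0.066). All 3 probe sets of AKR1C2 had 1 sign. In the fit of every probe set on its own, a fainter one fell by 0.66 ± 0.10 (adjusted p = 0.00622). The faintest differed by -0.21 ± 0.13 (adjusted p = 0.393). The close paralogs of AKR1C2, AKR1C1 (-0.54 ± 0.11) and AKR1C3 (-0.50 ± 0.10), were called lower. Both calls were lost without the LR3 ceritinib array (adjusted p = 0.143 and 0.117) or the LR2 untreated array (0.0605 and 0.0686), and that of AKR1C1 without the LR2 ceritinib array (0.0664). Which paralog each probe set read was not established.

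Most calls among genes of interferon response and antigen presentation were higher in LR3. In the interferon list 6 of 18 were higher and 1 lower, and 7 and 1 after either scaling. Beside IFI35, ISG15, a ubiquitin-like modifier, had 8.91 and 8.71 in LR3, against 8.03 and 8.05 in LR2 and 8.11 to 8.41 in parental cells, and rose by 0.80 ± 0.12. IFITM1, a membrane protein that limits viral entry, rose by 0.89 ± 0.10, and its parental arrays, at 6.53 to 6.73, were above both lines, although close paralogs of IFITM1 may share its probes. UBE2L6, the conjugating enzyme for ISG15, went the other way and fell by 0.95 ± 0.09, with 4.62 and 4.60 in LR3, against 5.62 and 5.59 in LR2. Without the LR3 ceritinib array 4 interferon genes were higher. Antigen presentation had 6 of 24 higher and 0 lower, but 1 higher without the LR3 untreated array, 2 without any 1 of the other paired arrays and 3 without the LR2 crizotinib array. HLA-C, a class I heavy chain with many near-identical relatives, had 11.30 and 11.52 in LR3, against 10.77 and 10.81 in LR2 and 10.38 to 10.64 in parental cells. It rose by 0.64 ± 0.08 (adjusted p = 0.00216), a call lost in the paired arrays alone (adjusted p = 0.0524). B2M, the light chain of class I, named after its values were seen, rose by 0.41 ± 0.09 and was not called without any 1 of the paired arrays (adjusted p 0.0544 to 0.153). Of 13 NF-kB, chemokine and cytokine genes, 3 were higher and 1 lower, beside 7.29% and 12.3% of all genes tested. PTGES, the synthase that acts after PTGS2 in making prostaglandin E, had 10.46 and 10.41 in LR3, against 9.86 and 9.82 in LR2 and 9.35 to 9.40 in parental cells, and rose by 0.61 ± 0.08.

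Glycolysis and hypoxia genes had 12 of 30 higher in LR3 and 1 lower, with a median of 0.24, and 14 and 1 after centring. Without the LR3 untreated array 6 were higher, without LR2 untreated 7 and without LR3 ceritinib 8. PFKP, a phosphofructokinase of glycolysis, had 8.83 and 8.80 in LR3, against 7.85 and 7.80 in LR2 and 7.78 to 8.03 in parental cells, and rose by 1.06 ± 0.12 (adjusted p = 0.00117). The oxygen sensor EGLN3 rose by 0.90 ± 0.21 (adjusted p = 0.0209), and was not called without any 1 of the paired arrays or the LR2 crizotinib array (adjusted p 0.0581 to 0.144). NDRG1, a stress-response gene, rose by 0.90 ± 0.09, with 9.76 and 9.89 in LR3, against 8.74 and 9.08 in LR2, and the aldolase ALDOC by 0.83 ± 0.09. Named after their values were seen, the glucose importer SLC2A1 rose by 0.81 ± 0.11 and the phosphofructokinase PFKM by 0.79 ± 0.08. LDHA, which turns pyruvate into lactate, was the member that fell (-0.35 ± 0.08, adjusted p = 0.0212), and it was not called without any 1 of the paired arrays (adjusted p 0.0906 to 0.151).

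**Figure D4:**
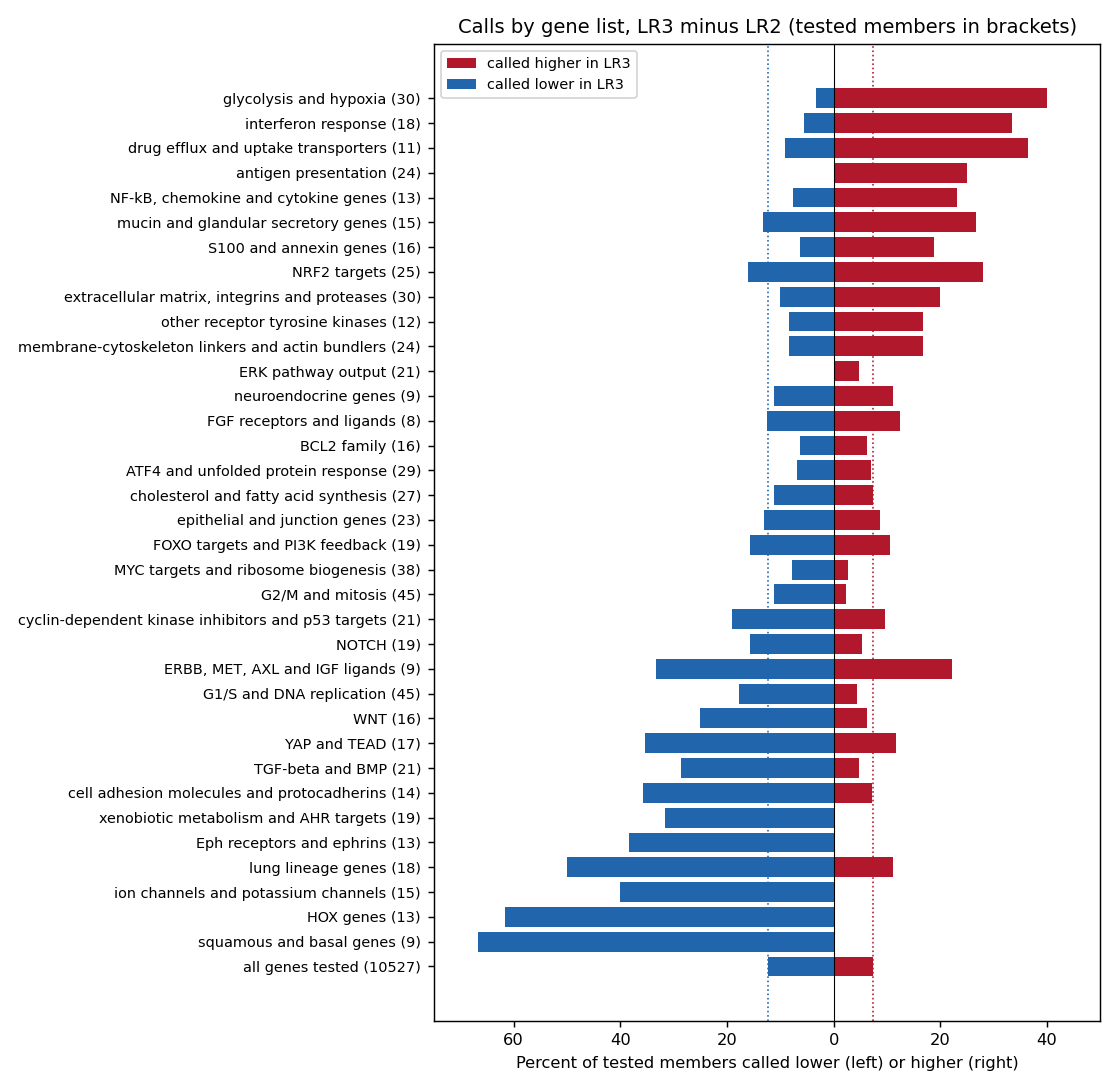
Percent of tested members called lower (blue, left) or higher (red, right) in LR3 for each gene list with at least 8 members tested, with the number tested in brackets and all 10527 genes at the bottom and as dotted lines (12.3% lower, 7.29% higher). The largest shares lower are those of squamous (6 of 9), HOX (8 of 13) and lung lineage genes (9 of 18), and the largest shares higher those of glycolysis (12 of 30), transporter (4 of 11) and interferon genes (6 of 18).

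Few growth and death genes were called, at rates near those of all genes. Of 45 G1/S and replication genes 8 were lower and 2 higher, and of 45 G2/M genes 5 were lower and 1 higher. Without the LR3 ceritinib array these became 0 and 0 for G1/S and 2 and 0 for G2/M, and without the LR2 ceritinib array 1 and 1 for G1/S. The proliferation marker MKI67 differed by -0.20 ± 0.14 (adjusted p = 0.361). KIF15, a mitotic kinesin, had 5.70 and 5.84 in LR3, against 6.86 and 7.24 in LR2 and 6.81 to 7.46 in parental cells, and fell by 1.28 ± 0.11 (adjusted p = 0.000447). NDC80, a kinetochore protein, fell by 0.74 ± 0.10. CDKN1A, the cell cycle inhibitor p21, had 10.15 and 9.70 in LR3, against 8.92 and 8.76 in LR2 and 8.71 to 9.35 in parental cells, and rose by 1.11 ± 0.11 (2.16-fold, adjusted p = 0.00073). BCL2L11, which encodes the death activator BIM, fell by 0.72 ± 0.15 with 2 of its 14 probe sets of opposite sign, and was not called without the LR3 ceritinib array (adjusted p = 0.137) or the LR2 untreated array (adjusted p = 0.0574). Among FOXO targets, 2 were higher and 3 lower of 19, and 6 and 3 without the parental ceritinib array. KLHL24, an adaptor of a ubiquitin ligase, was at 5.46 and 6.96 in LR3, against 7.21 and 7.82 in LR2, and fell by 1.38 ± 0.24. Without the LR3 untreated array the difference was -1.24 and was not called (adjusted p = 0.0709). The repressor BCL6 fell by 0.93 ± 0.12. Genes of p53 and cyclin-dependent kinase inhibitors had 2 of 21 higher and 4 lower, and the BCL2 family 1 of 16 higher and 1 lower. With the LR3 ceritinib array left out, these became 1 and 0, and 0 and 0.

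Of 38 genes of MYC and ribosome biogenesis 3 were lower and 1 higher, and of 27 cholesterol and fatty acid genes 3 were lower and 2 higher, against 5 higher after centring. In the ATF4 list 2 of 29 were higher and 2 lower, and 6 higher and 1 lower after centring. With the LR3 ceritinib array left out, the MYC list had 1 lower and 0 higher, the cholesterol list 1 and 1, and the ATF4 list 1 and 1. Without the parental ceritinib array the ATF4 list had 5 higher and 4 lower. DNAJB9, a chaperone of the endoplasmic reticulum, rose by 0.93 ± 0.10, with 1 of its 3 probe sets of opposite sign. Ion channels had 6 of 15 lower and 0 higher, and 4 lower and 1 higher after centring. Without the LR3 ceritinib array 2 were lower, and without LR3 untreated, LR2 ceritinib or LR2 crizotinib 3 were. KCNS3, a modifier subunit of voltage-gated potassium channels, had 7.41 and 7.64 in LR3, against 8.62 and 8.82 in LR2 and 6.51 to 7.21 in parental cells, so that LR2 was the highest of the lines, and it fell by 1.21 ± 0.12. The cancer-testis antigen MAGEC1 had 6.31 and 6.51 in LR3, against 4.92 and 4.97 in LR2 and 4.0 to 4.52 in parental cells, and rose by 1.52 ± 0.16. Its LR3 arrays alone exceeded the floor. S100 and annexin genes had 3 of 16 higher and 1 lower, neuroendocrine genes 1 of 9 higher and 1 lower, and ligands of ERBB, MET, AXL and IGF receptors 2 of 9 higher and 3 lower. With the LR3 ceritinib array left out, the S100 and annexin genes had 2 higher and 1 lower, and the ligands 1 and 2.

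Many of the lower calls lay in runs of neighbouring genes. A running median over 15 neighbouring tested genes, in the order of a RefSeq table of GRCh38.p14, passed 0.3 in size with 1 sign in both pairs in 22 stretches, 19 lower and 3 higher in LR3. They held 866 genes. Of the 788 genes in lower stretches 441 were called lower (56.0%), which is 34.0% of all lower calls in 7.49% of the genes. Outside the stretches 8.85% of genes were lower and 7.35% higher. In the higher stretches 46 of 78 genes were called higher (59.0%). The stretches were chosen on these differences, so the shares are a description. DNA copy number was not measured, and its part in the differences was not tested. After centring there were 17 lower and 8 higher stretches.

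The longest stretches lay on chromosome 3 and chromosome 11. The run of 154 genes of chromosome 3 between BRK1 and USP4 had median differences of -0.38 and -0.49 in the untreated and ceritinib pairs, with 97 genes lower and 1 higher. Against parental cells, LR3 medians were -0.37 and -0.38 and LR2 medians 0.02 and 0.08, with -0.02 in the crizotinib arrays, which the rule did not use. The LR3 line was thus the one that departed from parental cells there. The neighbouring run from IFRD2 to CRYBG3, with 87 genes, had medians of -0.36 and -0.46. On the whole of chromosome 3, 210 of 584 genes were called lower (36.0%), and on chromosome 11, 236 of 636 (37.1%), beside 12.3% over all genes. The longest run on chromosome 11, from AAMDC to TMPRSS4 with 101 genes, had medians of -0.34 and -0.43, with LR3 at -0.39 and -0.34 and LR2 at 0.00 and 0.08 against parental cells.

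In other stretches LR2 departed, or both lines did. The 22 genes between FXR1 and EIF4G1 on chromosome 3 were lower in LR3 by medians of -0.31 and -0.40, while LR3 stood at 0.00 and -0.04 against parental cells and LR2 at 0.40 and 0.44, with 0.30 in the crizotinib arrays. On chromosome 8 the run of 42 genes from ZFAND1 to STK3 had medians of -0.36 and -0.40, with LR3 at 0.02 and 0.05 and LR2 at 0.37 and 0.40 against parental cells (0.33 with crizotinib). The run of 27 genes from NTAQ1 to DENND3 was higher in LR3 by 0.37 and 0.35, with LR3 at 0.05 and 0.20 and LR2 at -0.31 and -0.16 against parental cells (-0.34 with crizotinib). There LR2 departed more in untreated cells and LR3 slightly more with ceritinib. The 36 genes from RHPN1 to VPS28 on the same chromosome were higher by 0.34 and 0.29, with LR3 at 0.17 and 0.19 and LR2 at -0.21 and -0.11 (-0.31 with crizotinib), so both lines departed. The 15 genes from EID1 to MAPK6 on chromosome 15 were higher by 0.46 and 0.34, with LR3 at 0.12 and 0.17 and LR2 at -0.34 and -0.15 against parental cells (-0.31 with crizotinib).

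Several genes named above lie in these stretches. EPHA3 and LRIG1 are in the run from IFRD2 to CRYBG3, and TGFBR2 and KIF15 in that from BRK1 to USP4. B3GNT5 and KLHL24 are in the run from FXR1 to EIF4G1, and CD44, GPC6 and NDC80 are in lower stretches of other chromosomes. NDRG1 is in the higher run from NTAQ1 to DENND3. PROS1 and MMP10 lie in lower stretches and were called higher. The stretch of PROS1, from IFRD2 to CRYBG3, had 55 genes called lower and 2 higher. That of MMP10, from AAMDC to TMPRSS4, had 56 lower and 2 higher. EPHA3 fell by 2.37, beside medians of -0.36 and -0.46 in its stretch. What part the place of a gene had in its difference was not tested.

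**Figure D5:**
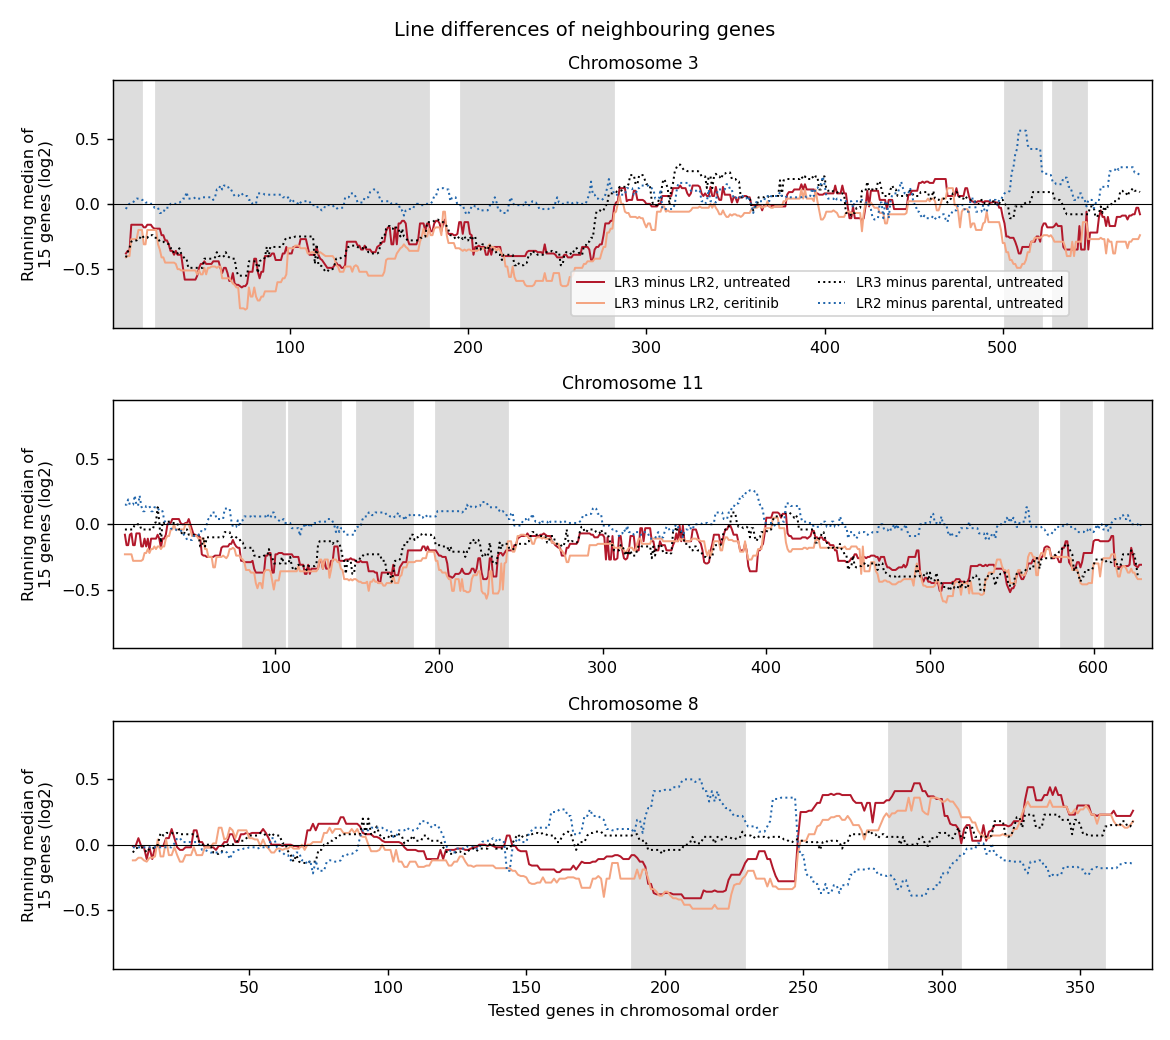
Running medians over 15 neighbouring tested genes, in gene order, of LR3 minus LR2 untreated and with ceritinib (solid lines), and of LR3 and LR2 minus parental cells untreated (dotted), log2, with the stretches shaded. On the first part of chromosome 3 the LR3 minus parental line follows the LR3 minus LR2 lines (medians of -0.37 and -0.38 in the longest stretch), and on chromosome 8 LR2 departs by 0.37 in the lower stretch, where LR3 stays at 0.02, while in the stretch from RHPN1 to VPS28 LR3 lies at 0.17 and LR2 at -0.21.

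The LR2 crizotinib array belongs to neither pair and gives a further reading of LR2. Of the 42 genes at least 2-fold higher in LR3 in both pairs, it lay under both LR3 arrays in 42, and of the 87 at least 2-fold lower it lay above both in 84. Over all genes tested it lay under both LR3 arrays in 41.1% and above both in 39.0%. Parental cells, taken as the mean of the untreated and ceritinib arrays, lay between the resistant lines in 447 of 767 genes higher in LR3 (58.3%) and in 822 of 1297 lower (63.4%), beside 32.4% of all genes tested. They were nearer to LR2 in 466 and nearer to LR3 in 300 of the genes higher in LR3, and in 751 and 542 of those lower. The called genes were chosen for a wide gap between the lines, into which parental values fall more readily, so these shares are a description.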

How the data were processed

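RNA was extracted with a column kit, amplified and labelled with a 3' IVT kit and hybridized to GeneChip arrays, per the labels' protocols. The deposited values are log2 signals summarised with RMA by the authors, per the submitters' processing notes. The sources used here do not name the software or say which arrays were normalized together. The table held 49395 probe sets, of which 44988 had 1 gene symbol in the platform annotation, 1832 had several and 2473 none. The probe set with the highest mean stood for its gene. Genes above the 50th percentile of all values in at least 2 arrays were tested with limma 3.58.1 in R 4.3.3, with line and agent as additive terms over all 8 arrays (3 residual degrees of freedom, 4.99 prior) and Benjamini-Hochberg adjustment over all 10527 genes. LR3 had no crizotinib array, so leaving out either crizotinib array gives the same LR3 minus LR2 fit. All tests were two-sided, and the script was tested on simulated data.

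The members and the 37 gene lists were chosen with earlier results of these data known. Named genes were the 15 largest called rises and falls, up to 4 largest calls a list, and a set of receptors and markers. Gene order and promoter sequences came from RefSeq (GRCh38.p14), and other steps used Python 3.11.15 and pandas 2.3.3. Alternatives were centring, quantile normalization, other filters, other probe set rules, other model terms and leaving out each array. The number of arrays limits the precision.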

Additional observations from a re-analysis of the deposited data

Results flagged for a closer look

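EGFR, the epidermal growth factor receptor, had opposite signs in the pairs at its brightest probe set, 1 of 8. It read 4.95 untreated and 4.27 with ceritinib in LR3, against 4.65 and 4.79 in LR2, so LR3 minus LR2 was 0.3 in untreated cells and -0.52 with ceritinib. Some of its other probe sets had this pattern and some did not, and all lay under the floor in LR3 and LR2. The difference between the pairs was not tested, and the gene was too dim to enter the fit.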

How the results depend on the processing

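Calls were recomputed in 20 alternative fits, and no called gene that is named reversed. Among named genes not called, MET (-0.19 to 0.09), IGF1R (-0.24 to 0.36) and MKI67 (-0.51 to 0.10) had differences of both signs. The count of genes higher in LR3, 767 as reported, was 1290 with each array centred, 164 in the 4 paired arrays alone and 498 without the crizotinib arrays, and it ran from 243 to 970 when 1 array was left out. The count lower, 1297 as reported, was 380 in the paired arrays alone and 420 to 1660 when 1 array was left out. The highest of these counts came without the parental ceritinib array (970 and 1660). The 129 genes at least 2-fold different in both pairs became 83 with the mean of all probe sets of a gene and 494 at 1.5-fold. Of 143 named genes called, 69 kept their call in every alternative that tested them, 16 lost it in 1 and 58 in more than 1. The settings with the most losses were the paired arrays alone (56), without the LR3 ceritinib array (54) and without the LR2 untreated array (38), and fewer arrays entered each of these fits. EML4, MKI67 and AKR1C2, not called as reported, were called in at least 1 alternative. With a window of 25 genes there were 14 stretches, 12 lower and 2 higher. No paired analysis was possible because the replicate number is 1 in every condition and so blocks nothing. Pairing by agent is another matter: agent is a term in the fit, and the fit of the paired arrays alone had 1 residual degree of freedom. With 1 array per condition, the spread between cultures is unknown, and signals under the floor give differences of uncertain size.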
